A study of Mus musculus with 2 samples.

Results

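The AP-1, Egr and Atf3 factors are a group of 10 mouse genes that encode stimulus-responsive transcription factors: the Fos family (Fos, Fosb, Fosl1 and Fosl2), the Jun family (Jun, Junb and Jund), the zinc finger factors Egr1 and Egr2, and Atf3. They were taken by gene symbol from 30744 symbols of the count table, and each of the 10 had a single gene model, so no choice between models was needed. The symbols were listed without a filter on measured values, though with earlier results of these data known. Transcription was compared between 1 library of normal kidney and 1 library of a kidney tumour, both from a C57BL/6 x DBA/2 F1 strain background. The normal kidney is labelled WT and received no doxycycline. The tumour library carries the genotype label Tet-OSKM/mPer2-luc. Its animal was given doxycycline, which switches on the reprogramming factors Oct4, Sox2, Klf4 and c-Myc. A breeding text shared by both libraries describes chimeric embryos built from ES cells with Rosa26-M2rtTA, TetO-OSKM and mPer2-luc alleles, and does not say whether the normal kidney was chimeric. A tumour of such an animal can hold host cells as well as cells of the injected line, and host cells lack the transgenes. The labels do not say how long the tissues were handled before lysis or whether animals were pooled.

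AP-1 is a dimer of basic leucine zipper proteins. Jun proteins can pair with themselves or with a Fos protein, whereas Fos proteins need a Jun partner, and the dimer binds the sequence TGANTCA in promoters and enhancers. Fos, Fosb, Jun, Junb, Egr1, Egr2 and Atf3 are immediate early genes. They are switched on within minutes by growth factors or stress through MAP kinases, serum response factor and CREB, and give short-lived transcripts. Many such genes, though not all, are nearly silent in resting tissue. Jund and Fosl2 are made more steadily. In the kidney these factors are best known for their brief induction in tubule cells after ischaemia or toxic injury.

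The sequences upstream of the members are shown for the short motifs they hold; a match is a description of letters and no evidence of binding. The RefSeq table of start sites (build GRCm38.p6, the assembly called mm10 by the UCSC browser) held 8 of the 10 members, all but Fosl1 and Egr1. The 250 bases before the start site nearest to the deposited model are shown, 5′ to 3′ on the coding strand, for Fos, Egr2 and Atf3, which were higher in the tumour library, and for Jun, which differed by less than 2-fold. Capitals mark motif matches. The Fos window lies at chr12:85473640-85473889 (plus strand), Egr2 at chr10:67537619-67537868 (plus), Atf3 at chr1:191183334-191183583 (minus) and Jun at chr4:95052223-95052472 (minus). The RefSeq start of Fos differs by 11 bases from that of the deposited model.
Fos: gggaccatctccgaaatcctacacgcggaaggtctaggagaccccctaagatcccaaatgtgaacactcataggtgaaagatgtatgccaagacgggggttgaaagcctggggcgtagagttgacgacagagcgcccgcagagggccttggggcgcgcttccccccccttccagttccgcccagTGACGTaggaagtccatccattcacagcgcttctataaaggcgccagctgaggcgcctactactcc
Egr2: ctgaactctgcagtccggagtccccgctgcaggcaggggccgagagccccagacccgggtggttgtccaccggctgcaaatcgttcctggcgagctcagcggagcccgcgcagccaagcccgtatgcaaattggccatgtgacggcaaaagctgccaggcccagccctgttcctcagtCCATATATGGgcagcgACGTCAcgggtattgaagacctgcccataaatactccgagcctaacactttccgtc
Atf3: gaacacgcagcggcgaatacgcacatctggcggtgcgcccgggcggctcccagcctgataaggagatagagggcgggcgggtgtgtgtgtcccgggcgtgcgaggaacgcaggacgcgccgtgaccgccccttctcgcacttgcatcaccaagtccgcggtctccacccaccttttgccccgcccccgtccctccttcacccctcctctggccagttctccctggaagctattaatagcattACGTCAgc
Jun: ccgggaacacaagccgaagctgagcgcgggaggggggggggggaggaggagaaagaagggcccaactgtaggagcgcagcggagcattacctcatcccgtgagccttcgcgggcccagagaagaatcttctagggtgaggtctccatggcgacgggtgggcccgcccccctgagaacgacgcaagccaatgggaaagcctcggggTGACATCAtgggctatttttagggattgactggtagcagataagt

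Both strands of each window were searched for TGACGT (the core of the cAMP response element bound by CREB and ATF factors), the full element TGACGTCA, the AP-1 site TGANTCA, its variant TGACATCA, the Egr site GCGNGGGCG and the CArG box bound by serum response factor. Overlapping matches were allowed, and every TGACGTCA also holds TGACGT. The core was chosen as a motif after these windows had been read. It was found in 3 of the 8 windows, those of Fos (66 to 61 bases upstream), Egr2 (56 to 51, on the reverse strand, read as ACGTCA) and Atf3 (8 to 3, reverse strand), and in 6.47% of all 32851 windows of that length in the table. The full element was in none of the 8, against 1.55% of all windows. The Egr2 window also held a CArG box, CCATATATGG, 72 to 63 bases upstream, a motif present in 1.47% of windows. Motifs further upstream than these windows were not searched for any member. The Jun window held TGACATCA 45 to 38 bases upstream (2.93% of windows). GCGGGGGCG was found upstream of Fosb (50 to 42) and Fosl2 (79 to 71), against 4.70% of windows with an Egr site. TGANTCA, which 6.75% of windows hold, was in none of the 8, and the windows of Junb and Jund held none of these motifs.

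The members fell apart by their ratio. In the tumour library Fos, Egr2, Atf3, Egr1 and Fosl1 were between 4.62-fold and 11.7-fold higher. The Fosl1 ratio rests on a floor of 3 counts for its 0 normal reads. Jun, Jund, Fosl2 and Junb differed by less than 2-fold. No member was lower. The ratio is that of read counts scaled to library size by TMM (CPM), tumour over normal, with a 95% interval that covers counting error only. With 1 library per group there is no replicate check and no p-value, so every value compares these 2 libraries. A gene with 20 or more reads in the libraries together counted as measured, and as higher or lower with a ratio of at least 2-fold and an interval that excludes 1. Of the 10 members 9 were measured; 5 of them were higher, none lower and 4 neither, where 31.2% of all 16326 measured genes were higher, 28.0% lower and 59.2% either. Fos, Fosl1 and Egr2 had fewer than 20 reads in the normal library and passed the minimum only through the tumour library, so that the count of 5 does not bear on the members as a group. In bulk tissue, more cells that make a transcript and more transcript per cell cannot be told apart.

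**Figure D1:**
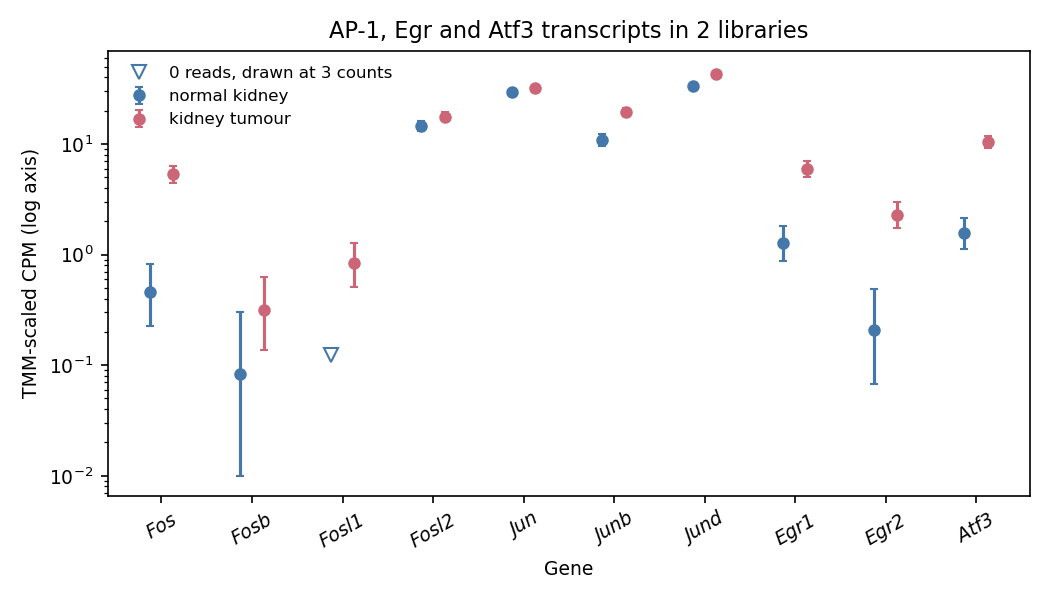
TMM-scaled CPM (log axis) of the 10 genes in the normal kidney (blue) and the kidney tumour (red), 1 library each, with 95% Poisson intervals for counting error; the open triangle stands for 0 reads and is drawn at 3 counts. Jun and Jund lie near 30 to 43 CPM in both libraries, whereas Fos, Egr1, Egr2 and Atf3 lie below 2 CPM in normal kidney and between 2.29 and 10.5 CPM in the tumour.

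In the Fos family, Fos and Fosl1 were higher, Fosl2 differed by less than 2-fold and Fosb was not measured. Fos (chromosome 12, 85473901 to 85477270, plus strand), the founding immediate early gene, had 11 normal and 135 tumour reads, or 0.456 and 5.34 CPM. It was 11.7-fold higher (interval 6.34 to 24.0). Fosl1 (chromosome 19, 5447698 to 5455938, plus), which encodes FRA1, a factor of migrating and invasive cells, had 0 and 21 reads. Set against a floor of 3 counts for the normal library it was 6.68-fold higher, and the lower limit of its counting interval was 4.97-fold. The Fosl1 model overlaps Ccdc85b on the other strand, which had 274 and 280 reads, and no source used here gives the strand setting of the count. Fosb (chromosome 7, 19302696 to 19310045, minus), an inducible paralog of Fos, had 2 and 8 reads, too few to be measured, with a ratio of 3.82 and an interval from 0.762 to 36.9 that includes no difference. Fosl2 (chromosome 5, 32136472 to 32157839, plus), which encodes FRA2, had 349 and 447 reads (14.5 and 17.7 CPM) and a ratio of 1.22 (1.06 to 1.41).

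All of the Jun genes were readily detected in both libraries. Jun (chromosome 4, 95049036 to 95052222, minus), the target of the JNK kinases, had 707 normal and 805 tumour reads, 29.3 and 31.8 CPM. Its ratio was 1.09, with an interval of 0.981 to 1.20 that includes no difference. Jund (chromosome 8, 70697739 to 70700616, plus), the Jun protein of resting cells, had 807 and 1089 reads (33.5 and 43.1 CPM) and a ratio of 1.29 (1.17 to 1.41). Junb (chromosome 8, 84976909 to 84978748, minus), which often opposes Jun at shared targets, had 262 and 494 reads (10.9 and 19.5 CPM). At 1.80-fold (1.55 to 2.10) it fell short of the 2-fold line. DESeq2 size factors also left it short, at a log2 ratio of 0.84. It passed that line with plain CPM, with the totals of the file headers and with totals that leave out mitochondrial models and Rn45s. It also passed with RPKM plus 0.1 or plus 1. The GENCODE M21 annotation places antisense genes over Jun (Junos) and Jund (Gm11175), whose reads cannot be told from those of the Jun genes where a count ignores strand.

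Both Egr genes and Atf3 were higher. Egr1 (chromosome 18, 34861207 to 34864956, plus), a zinc finger factor induced by mitogens through serum response factor, had 31 and 150 reads, or 1.29 and 5.93 CPM. It was 4.62-fold higher (3.12 to 7.03). Egr2 (chromosome 10, 67537869 to 67542188, plus), its paralog known for hindbrain, Schwann cell and lymphocyte development, had 5 and 58 reads (0.207 and 2.29 CPM) and was 11.1-fold higher (4.48 to 35.4). Atf3 (chromosome 1, 191170297 to 191183333, minus), a stress-induced repressor of the ATF and CREB family that can pair with Jun proteins, had 38 and 265 reads (1.58 and 10.5 CPM) and was 6.65-fold higher (4.72 to 9.61). The 5 to 38 normal reads of these 3 genes set most of the width of their intervals.

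**Figure D2:**
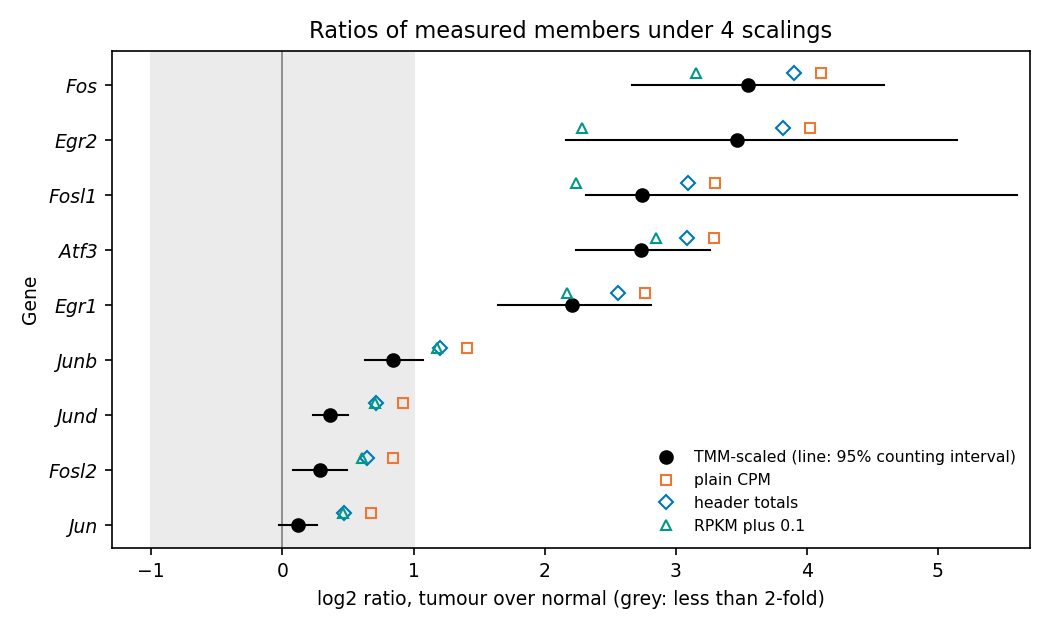
log2 ratio, tumour over normal, of the 9 measured members (black points, TMM-scaled, with 95% counting intervals). Open marks show the same ratio with plain CPM, header totals and RPKM plus 0.1. The interval of Fosl1 has no upper limit, and its point is set by a floor of 3 counts. Fos, Egr2, Fosl1, Atf3 and Egr1 lie outside the grey zone of less than 2-fold with each of the 4 scalings, and Junb lies inside it only with TMM.

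Placed among all measured genes, the log2 ratio of Fos (3.55) stood at percentile 90.4 of 16326 genes and Egr2 (3.47) at 90.0. Atf3 (2.73) stood at 86.3 and Egr1 (2.21) at 83.2. Fosl1 stood at 86.4, a rank that rests on the floor of 3 counts. Jun (0.12) stood at percentile 50.7, close to the median of all genes, 0.08. The scaling moves that median: plain CPM shifts it up by 0.56, header totals by 0.35, totals without mitochondrial models and Rn45s by 0.45, RPKM plus 0.1 by 0.32 and RPKM plus 1 by 0.16. The share of higher among called genes was 52.8% with TMM, 67.6% with plain CPM, 62.5% with header totals, 65.0% without mitochondrial models and Rn45s and 62.6% with RPKM plus 0.1.

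A comparison between members does not depend on how the libraries are scaled. For each pair of the 8 measured members with reads in both libraries, the ratio of their tumour-over-normal ratios was taken with an exact conditional 95% interval, not adjusted for the 28 pairs. The interval excluded 1 for 21 of the 28 pairs. No like share over pairs of all measured genes was taken, and the pairs were compared after the ratios had been seen. Fos and Egr2 also passed the read minimum only through the tumour library, so the count does not bear on how the members split. Fos was 10.8 times further up than Jun (5.77 to 22.3) and 9.57 times further than Fosl2 (5.07 to 19.9). Fos against Egr1 gave 2.53 (1.18 to 5.81). Fos against Egr2 gave 1.06 with an interval from 0.275 to 3.49, too wide to show whether they moved alike. Jun against Junb gave 0.604 (0.502 to 0.726). Every pair with Fos or Egr2 rests on 11 or 5 normal reads.

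Levels of different genes were compared per transcript length, with the RPKM values (reads scaled to transcript length and header total) that the authors deposited. In the normal kidney the order was Jund (6.94 RPKM), Jun (5.49), Junb (3.53), Fosl2 (1.47), Atf3 (0.477), Egr1 (0.250), Fos (0.130), Egr2 (0.0418) and Fosb (0.0131), with Fosl1 at 0 reads. The counting intervals of neighbours overlapped for Atf3 with Egr1, Egr1 with Fos, Fos with Egr2 and Egr2 with Fosb, and did not overlap for the pairs above them. In the tumour the order was Jund (11.4), Junb (8.10), Jun (7.62), Atf3 (4.05), Fosl2 (2.30), Fos (1.95), Egr1 (1.47), Egr2 (0.590), Fosl1 (0.372) and Fosb (0.0639). There the intervals overlapped for Junb with Jun, Fosl2 with Fos, Fos with Egr1 and Egr2 with Fosl1. Jund led in both libraries. Atf3 stood below Fosl2 in the normal library and above it in the tumour. Among the 16326 measured genes Fos stood at percentile 12.0 of RPKM in the normal kidney and 34.3 in the tumour, and Jund at 64.4 and 73.3, and the 5 higher members all stood below the middle in the tumour, the highest being Atf3 at 48.4.

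The make-up of the Fos family differed between the libraries, and that of the Jun family differed less. Fosl2 took 349 of 362 Fos family reads in the normal library (96.4%, exact Clopper-Pearson 95% interval 93.9% to 98.1%) and 447 of 611 in the tumour (73.2%, 69.5% to 76.6%). Fos took 3.04% (1.53% to 5.37%) and 22.1% (18.9% to 25.6%). Fosl1 had 0 of 362 reads in the normal library (exact upper limit 1.01%) and took 3.44% (2.14% to 5.21%) in the tumour. Per length the difference was larger, since the Fosl2 transcript is the longest of the 4: Fosl2 made up 91.1% of summed Fos family RPKM in the normal kidney and 49.1% in the tumour, and Fos 8.05% and 41.6%. In the Jun family, Jund held 45.4% of reads (43.1% to 47.8%) and 45.6% (43.6% to 47.6%). Jun held 39.8% (37.5% to 42.1%) and 33.7% (31.8% to 35.6%), and Junb 14.8% (13.1% to 16.5%) and 20.7% (19.1% to 22.4%). The Fos family as a whole took 16.9% of AP-1 reads in the normal (15.4% to 18.6%) and 20.4% in the tumour (18.9% to 21.9%), and 9.20% and 14.7% of their summed RPKM, so the Jun family was the more abundant in both. Summed over the 7 AP-1 genes, the ratio of TMM-scaled reads was 1.34 (1.27 to 1.42).

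**Figure D3:**
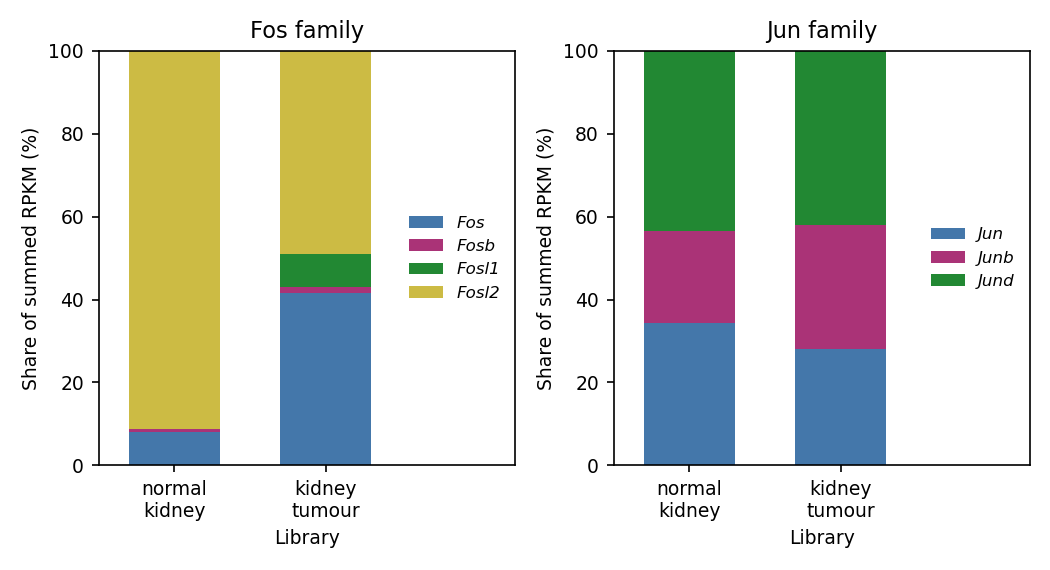
Share of summed RPKM taken by each gene in the Fos family (left) and the Jun family (right), 1 normal and 1 tumour library; bars add up to 100%. Fosl2 takes 91.1% of the Fos family in the normal kidney and 49.1% in the tumour and Fos 8.05% and 41.6%, whereas Jund takes 43.5% and 42.1% of the Jun family.

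Genes that act with the members or are known to respond to them were described with 12 lists of textbook membership, 166 genes in all, of which 158 were measured; 64 were higher, 17 lower and 77 neither, against the 31.2% and 28.0% of all genes given above. Each list is given by its counts and its median log2 ratio, beside the 0.08 of all measured genes. In several lists some higher genes had fewer than 20 normal reads and passed the minimum only through the tumour library. The counts of higher genes in those lists do not bear on the lists as groups. Counts are also given over 5 other scalings: plain CPM, header totals, totals without mitochondrial models and Rn45s, and RPKM plus 0.1 or plus 1. DESeq2 size factors, not among these 5, gave the same list counts as TMM. Of all measured genes the 5 scalings, in the order given, called 42.1%, 37.9%, 39.9%, 36.3% and 24.5% higher. They called 20.2%, 22.7%, 21.5%, 21.7% and 16.9% lower, so each range of counts has a background that moves with it. Upstream, the MAP kinase cascade held 28 measured genes with a median of 0.20: 7 were higher (9 to 12 over the other scalings), 2 lower and 19 neither. Mapk7, which encodes ERK5, was 5.12-fold higher (4.27 to 6.17) and Mapk12, a p38 isoform, 4.67-fold (3.95 to 5.55). The receptor Egfr was 5.56-fold lower (5.13 to 6.04) and the stress kinase Map3k5 3.77-fold lower (3.48 to 4.09).

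Serum response factor, its ternary complex partners, their cofactors and the Rps6ka kinase genes had a median of 0.94 over 13 genes. Among them 4 were higher and 1 lower, against 5 to 9 higher and none lower over the other scalings. Srf itself, which binds the CArG box, was 2.10-fold higher (1.89 to 2.33), the only 1 of the 4 that is not an Rps6ka gene. The RSK kinase genes Rps6ka2 and Rps6ka1, which act below ERK, were higher by 11.4-fold (9.29 to 14.2) and 3.68-fold (3.33 to 4.08), and Elk4, a partner of serum response factor, was 2.31-fold lower (2.08 to 2.57) and missed 2-fold with each of the 5. Genes that restrain MAP kinases were higher for 8 of 13 (8 to 12 over the other scalings) with none lower and a median of 1.40. Among them the ERK phosphatase Dusp5 was 12.1-fold higher (5.65 to 31.0), from 7 and 89 reads, and the receptor signalling inhibitor Spry2 was 6.29-fold higher (5.47 to 7.27).

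Other immediate early genes did not all follow Fos. Their median was 1.07: among 21 measured genes, 11 were higher (9 to 15 over the other scalings) and 2 lower (1 or 2). Ptgs2, the inducible cyclooxygenase, was 13.4-fold higher (7.26 to 27.3; short of 2-fold with RPKM plus 1) and the nuclear protein gene Ier2 10.3-fold (8.27 to 13.1). Ier3, a survival gene, was 5.38-fold lower (4.68 to 6.20), and Zfp36, whose protein tristetraprolin speeds the decay of transcripts with AU-rich elements, Fos among them, was 2.86-fold lower (2.40 to 3.42), a call that plain CPM and RPKM plus 1 did not give. Of the 8 measured AU-rich element binding proteins, 5 were higher, with each of the other scalings too, and Zfp36 was the 1 lower, with a median of 1.25. Hnrnpd was 5.32-fold (4.90 to 5.79) and Khsrp 4.65-fold (4.34 to 4.98) higher. The ligases that turn over Jun and Fos proteins had 1 of 8 higher, Fbxw7 at 2.56-fold (2.31 to 2.83), and 1 lower, Itch at 2.10-fold (2.01 to 2.20), with a median of 0.52. Over the other scalings 3 or 4 were higher and none was lower, Itch included.

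Partners and relatives of the members moved in both directions. Among the 13 measured basic leucine zipper partners 4 were higher (2 to 5 over the other scalings) and 1 lower; their median of 0.26 turned to -0.20 when at least 100 reads were required. Nfe2l3 was 40.4-fold higher (13.5 to 198) from 3 and 127 reads, and the small Maf gene Maff 9.42-fold (6.50 to 14.1), whereas Maf was 13.3-fold lower (11.9 to 15.0). Among 17 ATF and CREB genes 5 were higher and 4 lower, against 3 to 7 higher and 1 lower over the other scalings and 1 higher and 4 lower with at least 100 reads; their median of 0.10 turned to -0.14 at that same minimum. Creb3l4 was 3.67-fold (1.96 to 7.36) and Atf1 2.41-fold (2.11 to 2.75) higher. The membrane-bound factors Creb3 and Creb3l2 were lower, by 3.16-fold (2.83 to 3.54) and 2.54-fold (2.22 to 2.92); Creb3l2 missed 2-fold with each of the 5 other scalings, and Creb3l4 with RPKM plus 1. In the Egr family, Egr3 had 3 and 13 reads and Egr4 had 0 and 2, so neither was measured. The corepressors that Egr proteins bind, and whose genes Egr proteins can induce, were lower: Nab1 2.97-fold (2.69 to 3.27) and Nab2 2.27-fold (1.89 to 2.72). Nab2 missed 2-fold with each of the 5 other scalings.

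Genes known as AP-1 targets had a median of 2.14, with 13 of 18 measured genes higher (10 to 14 over the other scalings) and 1 lower. Some of the higher genes, Timp1 and Mmp9 among them, passed the read minimum only through the tumour library. The count of 13 therefore does not bear on the list as a group. The protease inhibitor Timp1 was 68.1-fold higher (34.3 to 158) from 8 and 571 reads, and the gelatinase Mmp9 32.8-fold (10.9 to 161) from 3 and 103 reads (short of 2-fold with RPKM plus 1), while the urokinase gene Plau was 9.18-fold lower (8.72 to 9.67). Genes known as Egr1 targets had 2 of 9 higher and 4 lower, with 2 higher and 1 or 2 lower over the other scalings; their median of -0.16 turned to 0.40 with plain CPM and lay between 0.16 and 0.29 with header totals, totals without mitochondrial models and Rn45s, and RPKM plus 0.1 or plus 1. Fn1 (fibronectin) was 14.2-fold (13.4 to 14.9) and Tgfb1 3.23-fold (2.27 to 4.67) higher, both of which are also in the AP-1 list, as is Plau, and Pdgfb was 2.65-fold lower (2.21 to 3.18). Pdgfb missed 2-fold with plain CPM, without mitochondrial models and Rn45s, and with RPKM plus 1. For Atf3, genes of the integrated stress response, in which ATF4 induces it, were higher for 7 of 17 (6 to 10 over the other scalings) and lower for 2 (1), with a median of 0.78. Asns, asparagine synthetase, was 9.87-fold (8.57 to 11.4) and the cystine transporter Slc7a11 8.96-fold (5.50 to 15.5) higher, the latter short of 2-fold with RPKM plus 1. Ddit3, which encodes the stress factor CHOP, was 2.14-fold lower (1.67 to 2.75; short of 2-fold with each of the 5 other scalings), and the lipoprotein receptor Vldlr 7.53-fold (6.92 to 8.19). Atf4 itself had a ratio of 1.72 (1.64 to 1.80).

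**Figure D4:**
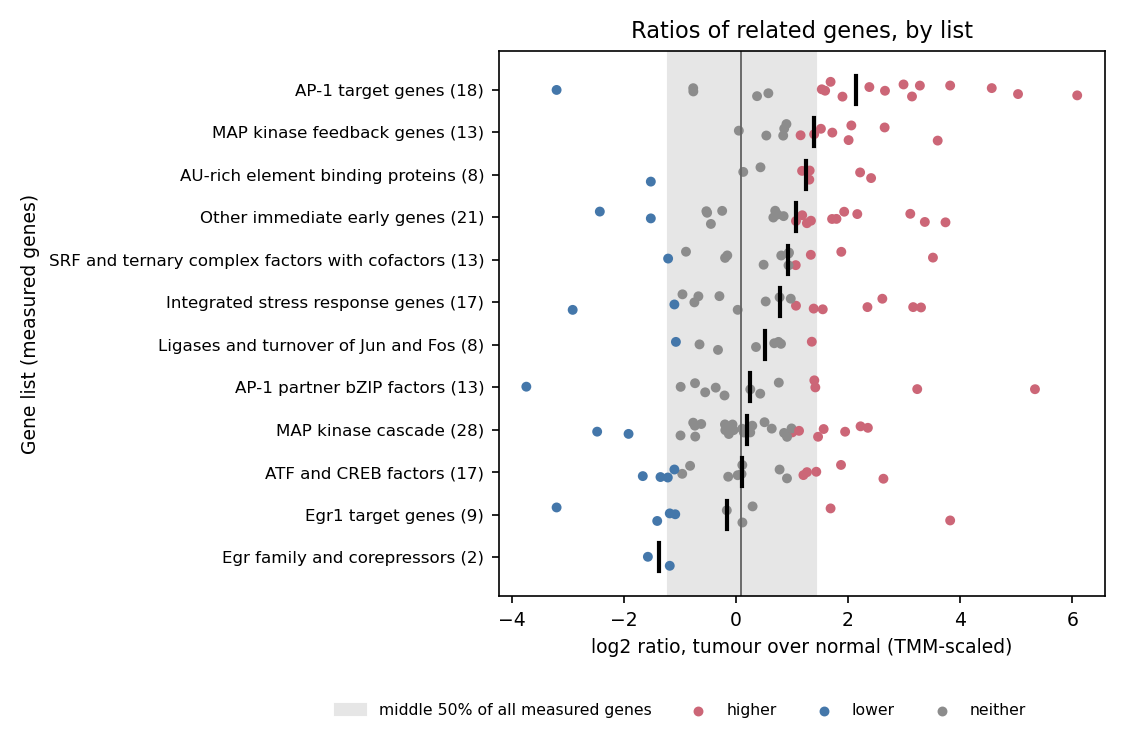
log2 ratio, tumour over normal, of the measured genes of 12 related lists (points; red higher, blue lower, grey neither), with each list's median as a black bar; the grey band spans the middle 50% of all measured genes and the thin line their median, 0.08. The AP-1 target list has the highest median, 2.14, and the Egr family and corepressor list, with only Nab1 and Nab2 measured, the lowest, -1.37.

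The cell types in the libraries differed along with these genes. All 10 nephron markers were lower in the tumour, with summed RPKM of 4669 in the normal kidney and 60.9 in the tumour, and all 8 pluripotency markers were higher, at 0.0183 and 945, with 6 of them at 0 reads in the normal kidney. Pou5f1 (254 RPKM in the tumour) and Sox2 (46.9) encode Oct4 and Sox2, which doxycycline switches on from the transgenes. Whether their reads came from the transgenes was not tested. Macrophage markers, of cells that express Fos, Egr1, Egr2 and Atf3 when activated, were higher for 6 of 7 genes, with summed RPKM of 36.6 and 222; Lyz2 was 11.4-fold higher (10.1 to 12.7), whereas Csf1r had a ratio of 0.530 (0.482 to 0.582). Both neutrophil markers found were higher, with sums of 1.11 and 9.83, and the pan-leukocyte gene Ptprc had a ratio of 1.19 (1.04 to 1.36). All 3 injured tubule markers were higher, with sums of 4.63 and 64.9, led by Havcr1 at 28.0-fold (20.4 to 39.6). Of the fibroblast and muscle markers 2 of 6 were higher (42.2 and 94.7), of the neural ones 4 of 4 (0.809 and 21.9), with Tubb3 at 0 reads in the normal kidney, and of the endothelial ones 3 of 5 were lower (75.9 and 28.8). The neural markers Rbfox3 (1 and 20 reads) and Syn1 (1 and 68) missed 2-fold with RPKM plus 1. Both passed the read minimum only through the tumour library, as did Tubb3 and all pluripotency and neutrophil markers found. Lymphocyte markers had sums of 1.93 and 2.88, and squamous markers, with Krt5 and Krt14 at 0 reads in the normal library and too few in the tumour (3 and 9) to be measured, 0.125 and 0.251. The measured squamous marker, Trp63, was 3.54-fold lower (1.56 to 9.01) from 27 and 8 reads, and missed 2-fold with RPKM plus 0.1 or plus 1. The part of these cell types in the values of Fos, Fosl1, Egr1, Egr2 and Atf3 was not tested.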

How the data were processed

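Ribosomal RNA was removed from total RNA of 1 normal kidney and 1 kidney tumour before stranded library preparation, per the labels' protocols. For 32958 gene models the authors deposited exon read counts and RPKM values, which matched counts divided by transcript length and header total within 1.8e-06. HOMER, STAR 2.5.0c, bcl2fastq and build mm10 are named in the submitters' processing notes, without the strand setting or the treatment of reads with several matches. Counted reads came to 29258428 (72.4% of the header total) and 20836819 (62.8%).

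One model per symbol (the most reads) was kept. TMM factors of edgeR 4.0.16 in R 4.3.3, from symbols with at least 20 reads, were 0.824 and 1.21. Ratios carry exact conditional (Clopper-Pearson) 95% intervals for counting error, and PCR copies are not told apart. A count of 0 was set to a floor of 3 counts, 0.124 and 0.119 CPM. Calls were tested on simulated counts. Alternatives were other scalings (DESeq2 1.42.0 size factors among them), floors, minimums and folds. Python 3.11.15, numpy 2.4.6, pandas 2.3.3, scipy 1.17.1 and matplotlib 3.10.9 were used.

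The members and lists were chosen with earlier results of these data known. Every member is named, with all Egr family genes and corepressors and, per list, the 2 most extreme called genes in either direction whose mean CPM reached 1; of the marker genes, those a statement rests on. Atf4 and Srf, and the comparison of member pairs, were added after values were seen.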

Additional observations from a re-analysis of the deposited data

How the results depend on the processing

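No paired analysis was possible because each group has 1 library. Fos and Atf3 were called higher under each of the 8 alternative scalings, model choices and floors, with log2 ratios from 1.38 to 4.11 and from 1.77 to 3.29. Fosl1, Egr1 and Egr2 were called under 7 of them and missed 2-fold with RPKM plus 1, at 0.46, 0.98 and 0.61. With it 3 members were higher (Fos, Atf3 and Junb), beside 24.5% of all genes, and 2757 of all genes were lower, against 4566. A minimum of 100 reads left 7 members, of which 3 were higher (Fos, Egr1 and Atf3), beside 28.0% of all genes. Junb was called under 5 of the 8, and also with a 1.5-fold threshold, which gave 6 higher members beside 38.4% of all genes. Requiring the whole interval beyond 2-fold kept 5, beside 26.4% of all genes. The ratios of the 5 called members kept their sign under the 8 alternatives. Those alternatives rescale or shrink a ratio, so they could not have reversed ratios this far from 1. Depth limits Fosb (10 reads in all), Fosl1 and the normal levels of Fos and Egr2. The alternatives without replicates do not show how far either value would vary between animals.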
